A study of Rattus norvegicus with 4 samples.

Results

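The genes described here are numbered homeobox and T-box transcription factor genes of the rat. Many of them lay out limbs, body segments and muscle in the embryo. They comprise the Hoxa, Hoxb, Hoxc and Hoxd clusters and the Tbx, Pitx, Irx, Meis, Pbx, Msx, Emx and Lbx families, with Six4 and its paralogues. They were chosen by symbol alone, and no measured value entered the choice. Of 81 such symbols in the RefSeq annotation, 54 were carried by a probe whose RefSeq accession names the gene, and these 54 were taken from 26624 genes or unnamed accessions on the arrays. The other 27 symbols, among them Hoxa9, Hoxa10, Hoxc10, Tbx2 and Tbx15, had no probe named by accession and were not analysed here. RNA of skeletal muscle from male rats aged 15 weeks was measured on 4 single-colour Agilent arrays. The arrays comprised 2 of sedentary Wistar wild type (WT), 1 of an exercised SPORTS rat and 1 of a sedentary SPORTS rat, SPORTS being a hyperactive mutant on the Wistar background. The comparisons address what the mutation and its exercise do to muscle RNA. Neither the muscle dissected nor the exercise regimen is named in the labels, no exercised wild type array is among the samples, and whether the WT samples were taken from separate animals is not stated. The error of a difference between 1 SPORTS array and WT therefore comes from the spread between these 2 WT arrays, which may be technical. The test used (limma) moderates that spread over all genes tested. With both SPORTS arrays against both WT arrays, the spread between the SPORTS arrays enters as well. Each SPORTS condition rests on 1 array.

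As background, homeodomain and T-box proteins bind DNA, and many of them set where along the body and limb a cell lies. HOX proteins bind DNA together with PBX and MEIS proteins, and neighbouring genes of a HOX cluster tend to be active together in the same stretch of the body or limb, a pattern that adult mesenchymal and muscle cells partly keep. In the limb, Pitx1 and Tbx4 mark the hindlimb and Tbx5 the forelimb; in muscle, Six4 and related proteins drive myogenic genes, Lbx1 marks migrating limb muscle precursors, and Tbx1 is active in some fast fibres.

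On the arrays, 46% of 30015 probes were well above background in the exercised SPORTS sample and 48.7% to 50.3% in the other 3, and no probe was saturated. All 4 samples lay on 1 slide. All 7 general skeletal muscle markers with a probe (of 10 listed) were above background on every array. Of 8 heart markers, Nppa, Nppb, Myl7, Nkx2-5 and Gata4 were above background on no array and Myl4, Myh6 and Sln on all 4. Of 6 brown fat markers, Ucp1, Zic1 and Lhx8 were above background on none, Ebf2 on 1, and Cidea and Cpt1b on all 4. Levels are given below as log2 of the processed signal minus the 75th percentile of that array, called the scaled log2 level. Values are comparable between arrays for 1 gene, and not between genes, because probes differ in brightness.

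Most of these homeobox and T-box genes, not all of which have a role in limb position, lacked a spot called well above background in this adult muscle. Of 52 members with usable spots, 19 were well above background on all 4 arrays, 4 on some arrays and 29 on none. Among all 26624 genes or unnamed accessions, 11805 were well above background on all 4 arrays. On at least 2 arrays, 13326 of these were, against 21 of the 52 members. Few Hox genes were detected: no Hoxc gene of 3, 2 Hoxa genes of 5, and 1 Hoxb gene of the 4 with usable spots were above background on every array, while of 6 Hoxd genes Hoxd9 was above on all arrays and Hoxd10 on 1. Among the genes above background on no array were Hoxa2, Hoxa6, Hoxb4, Hoxb8, Hoxb9, Hoxc4, Hoxc5, Hoxc12, Hoxd1, Hoxd4, Hoxd12, Hoxd13, Irx1, Irx2, Irx4, Irx6, Lbx2, Msx2, Msx3, Pbx4, Six2, Six3, Six6, Tbx4, Tbx5, Tbx6, Tbx20 and Tbx22. The signals of all 29 ran from 15.8 to 96.7. By contrast, Pbx2, Pbx3, Pitx1 and Pitx3 were above background on both WT arrays, as was each of the Meis genes measured, Meis1 and Meis3.

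**Figure D1:**
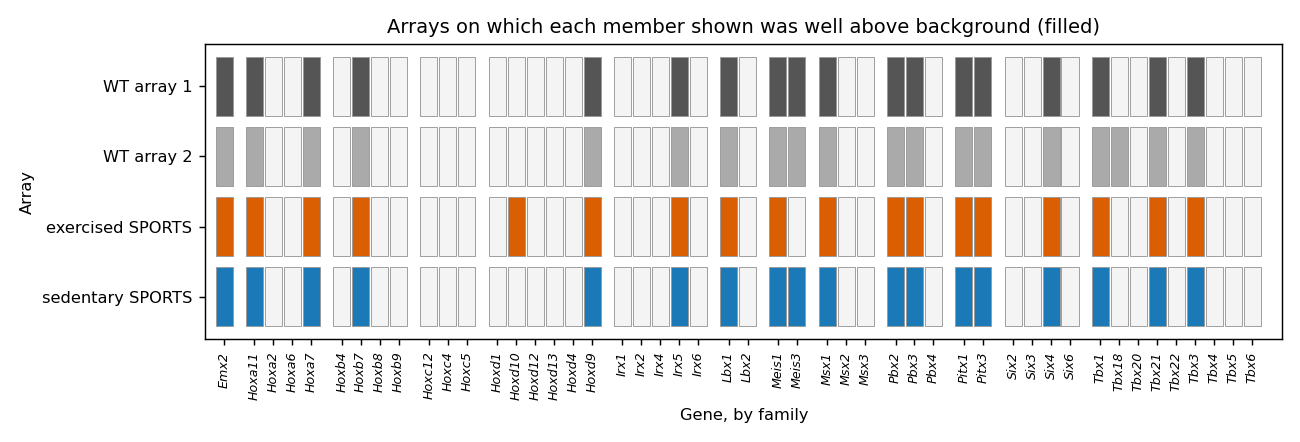
Each column is 1 of 48 members with usable spots, ordered by family, and each row is 1 array; a filled cell marks a spot well above the local background. Filled cells number 18 and 19 in WT, 18 in the exercised and 18 in the sedentary SPORTS sample, and the differences lie in Hoxd10, Meis3 and Tbx18.

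The limb-type genes divided by detection. Pitx1, which specifies hindlimb identity, stood at -0.26 and -0.07 in WT, -1.0 in the exercised and -0.77 in the sedentary SPORTS sample. Both SPORTS arrays were below both WT arrays. Tbx4, its partner gene in the hindlimb, and Tbx5, its forelimb counterpart, were above background on no array, the former on either of its probes, so they give no level for the limb of origin.

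The HOX genes above background on every array were Hoxa7, Hoxa11, Hoxb7 and Hoxd9, and on the exercised SPORTS array Hoxd9 and Hoxa7 rose while Hoxa11 fell. Hoxd9, which patterns the proximal limb and the lumbar spinal cord, was at 1.31 and 1.36 in WT, 2.78 in the exercised and 1.16 in the sedentary SPORTS sample. The exercised array stood apart from the other 3, by 1.45 ± 0.07 over WT (SE of the fit, 1 array against 2, limma adjusted p = 0.00497). The sedentary array differed from WT by -0.18 ± 0.07, which did not pass (limma adjusted p = 0.192).

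Hoxd10, its neighbour in the cluster, which patterns hindlimb motor neurons and the limb skeleton, was above background on the exercised SPORTS array alone. Its scaled log2 levels were -3.97 and -3.62 in WT, -1.15 in the exercised and -4.55 in the sedentary SPORTS sample. Because the other 3 spots were not well above background, the level is a bound: at least 5.56-fold higher than WT and at least 6.25-fold higher than the sedentary SPORTS array. With 1 array above background it did not enter the test. The remaining HoxD genes, Hoxd1, Hoxd4, Hoxd12 and Hoxd13, were dim on all 4 arrays, so the exercised array showed signal from Hoxd9 and Hoxd10 and from no other HoxD gene measured.

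Hoxa7, a trunk-level gene of the HoxA cluster, was at 1.68 and 1.73 in WT, 2.16 in the exercised and 1.43 in the sedentary SPORTS sample. The exercised array was the highest, 0.45 ± 0.07 over WT (limma adjusted p = 0.022), a call that was lost when dim genes were kept in the fit. Hoxa11, needed for the forearm and lower leg segment and known in adult muscle as a regional marker, was at 0.28 and 0.14 in WT, -0.57 in the exercised and -0.16 in the sedentary SPORTS sample. Both SPORTS arrays lay below both WT arrays. Hoxa11 fell by 0.78 on the log2 scale on the exercised array (SE 0.10, limma adjusted p = 0.0162), again lost without the filter. Hoxb7, the HoxB gene above background throughout, was at -2.05 and -1.81 in WT and at -1.65 and -2.13 in the exercised and sedentary SPORTS samples, and passed no test.

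Hoxa7 and Hoxd9, which rose on the exercised SPORTS array, and Hoxd10, detected there alone, have promoter entries, printed below 5′ to 3′ from 250 bases before to 50 bases after the RefSeq start on build GRCr8. Capitals mark CACGTG, the palindromic E-box, which was searched for after these sequences had been read.
Hoxa7 (chr4:82648192-82648491, minus strand): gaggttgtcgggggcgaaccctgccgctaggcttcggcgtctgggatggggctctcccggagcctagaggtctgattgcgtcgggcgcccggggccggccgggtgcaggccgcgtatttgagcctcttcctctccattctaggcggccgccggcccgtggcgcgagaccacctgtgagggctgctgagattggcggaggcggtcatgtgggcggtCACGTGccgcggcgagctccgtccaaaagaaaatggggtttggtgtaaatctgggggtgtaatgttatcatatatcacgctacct
Hoxd9 (chr3:80007756-80008055, plus strand): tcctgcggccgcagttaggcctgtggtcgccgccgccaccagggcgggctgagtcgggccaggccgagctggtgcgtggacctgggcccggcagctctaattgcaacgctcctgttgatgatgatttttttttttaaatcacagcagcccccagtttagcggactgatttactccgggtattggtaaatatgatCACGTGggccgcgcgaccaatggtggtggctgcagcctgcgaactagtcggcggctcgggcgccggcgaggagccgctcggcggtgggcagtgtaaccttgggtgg
Hoxd10 (chr3:80001697-80001996, plus strand): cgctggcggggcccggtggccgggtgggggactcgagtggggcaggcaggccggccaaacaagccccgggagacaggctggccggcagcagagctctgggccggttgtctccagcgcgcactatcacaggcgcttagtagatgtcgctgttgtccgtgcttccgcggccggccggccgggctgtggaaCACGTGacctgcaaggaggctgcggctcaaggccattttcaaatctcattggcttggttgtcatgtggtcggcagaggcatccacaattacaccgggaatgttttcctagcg
The E-box begins at base 216 of the Hoxa7 window, base 195 of Hoxd9 and base 189 of Hoxd10. Of the 36 members with a promoter entry, 5 hold CACGTG (13.9%; Hoxd1 and Irx1 are the other two), against 6.42% of all 33469 promoters of the same length. Hoxd1 and Irx1 were dim on every array. Tbx1 and Lbx1, which also rose on the exercised SPORTS array, have promoter entries, and neither window holds this E-box. The E-box was thus not found in every member that rose there and has a promoter entry. Irx5 rose there as well and has no promoter entry. CCAAT on either strand, likewise searched after reading, stands in 22 of 36 (61.1%) against 37.5% of all. The member promoters were also richer in G and C, with a median of 62.7% against 51.7%, and in CpG dinucleotides, with a median of 21 against 7. The binding motifs of these transcription factors were also counted on both strands, in the members' promoters against all: TAATTA (homeodomain) in 2.78% against 5.36%, TAATCC (bicoid type, the PITX class) in 2.78% against 7.17%, TGACAG (MEIS) in 19.4% against 19%, TGATTNAT (HOX with PBX) in 5.56% against 3.18%, AGGTGT (T-box) in 2.78% against 13.6% and TCAGGTT (MEF3, the site of Six4) in 2.78% against 4.03%. These letter matches describe sequence and are not binding data.

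Among the HOX cofactors of the PBX class, Pbx2 and Pbx3 fell on the exercised SPORTS array. Pbx2, a broadly expressed member of the class, was at -1.72 and -1.70 in WT, -2.25 in the exercised and -1.86 in the sedentary sample, and Pbx3 was at -2.31, -2.35, -2.84 and -2.04 in the same order. Against WT, exercised Pbx2 fell by 0.54 and Pbx3 by 0.51 on the log2 scale (limma adjusted p = 0.0146 and 0.0174). The Pbx3 call was lost with normexp background correction and without the filter on dim genes.

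The MEIS genes gave less precise values. Of 2 Meis1 probes, the brighter was used and the other was above background on no array. Meis1, the proximal limb determinant, varied more between the WT arrays than any other member tested, at -1.23 and -0.60, with -1.16 in the exercised and -1.79 in the sedentary SPORTS sample; neither difference from WT passed. Meis3 was at -3.53 and -3.29 in WT and -3.35 in the sedentary SPORTS sample, and was not above background in the exercised one, measured at -4.28. Its fall of 0.87 on the log2 scale passed the test (limma adjusted p = 0.0242), yet the bound was only at least 1.02-fold, and the call was lost with a floor on dim values, with a variance trend and without the filter.

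Pitx1 and Pitx3 fell on the exercised SPORTS array. Pitx3, a regulator of redox state in muscle progenitors, was at -0.27 and -0.18 in WT, -1.39 in the exercised and 0.07 in the sedentary SPORTS sample. The exercised array was the lowest of 4, and Pitx3 fell by 1.17 on the log2 scale (SE 0.08, limma adjusted p = 0.00674). Pitx1, whose values are given above, fell by 0.83 (SE 0.11, limma adjusted p = 0.0195), a call lost without the filter, and its sedentary difference of -0.61 did not pass (limma adjusted p = 0.0788).

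Six4 and Lbx1 were highest on the exercised and lowest on the sedentary SPORTS array, and Lbx1 passed the test on the former. Of 2 Six4 probes, the brighter was used and the other was above background on no array. Six4, a homeodomain activator of myogenic genes, was at -0.24, -0.11, 0.07 and -0.77 on the WT 1, WT 2, exercised and sedentary arrays, with neither difference from WT passing (limma adjusted p = 0.114 and 0.0621). Lbx1 was at 1.25 and 1.24 in WT, 1.57 in the exercised and 0.94 in the sedentary SPORTS sample, and rose by 0.32 ± 0.06 on the exercised array (limma adjusted p = 0.0352). That call was lost under quantile normalization, under scaling to detected probes and without the filter.

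**Figure D2:**
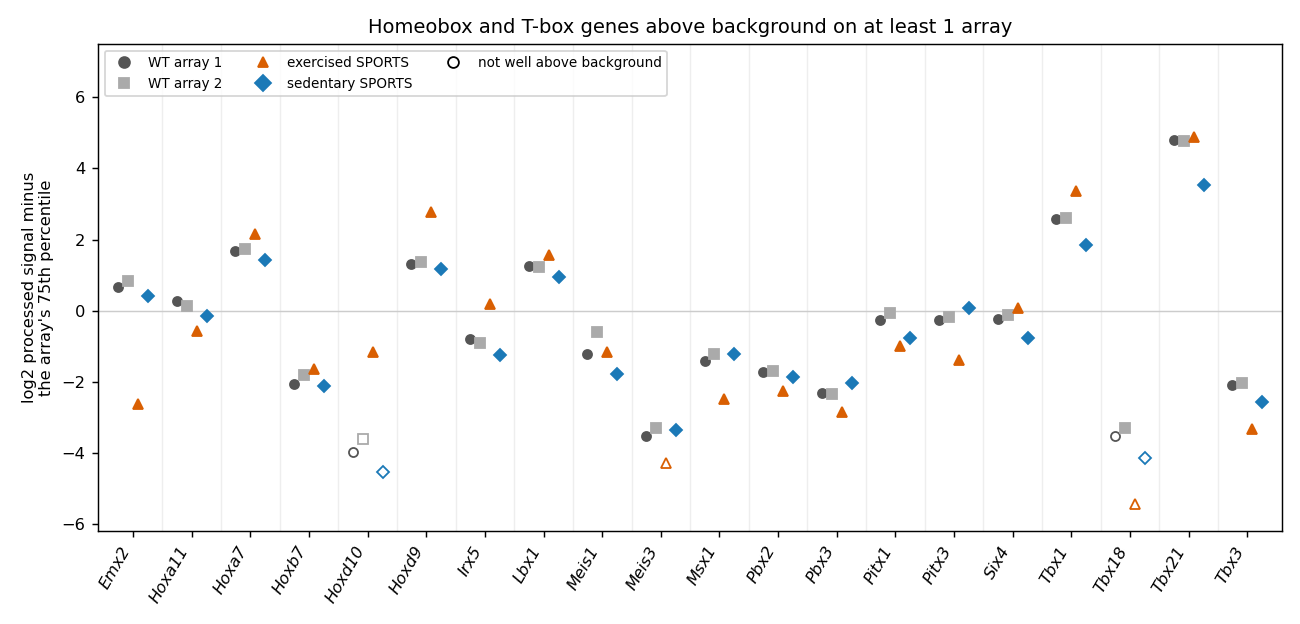
Scaled log2 level (vertical axis) of 20 members above background on at least 1 array, 1 symbol per array; open symbols mark spots not well above background. The WT symbols of the members tested lie within 0.63 of each other, while Emx2 (-2.63), Hoxd9 (2.78) and Hoxd10 (-1.15) on the exercised array stand clear of the other 3 arrays.

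Among the T-box genes, Tbx1 and Tbx21 were the members called on the sedentary SPORTS array. Tbx1, a regulator of branchial muscle formation that is also expressed in fast fibres of the limb, was at 2.57 and 2.61 in WT, 3.37 in the exercised and 1.84 in the sedentary SPORTS sample. The SPORTS arrays lay on opposite sides of WT: it rose by 0.78 ± 0.06 on the exercised array (limma adjusted p = 0.00881) and fell by 0.75 on the sedentary one (SE 0.06, limma adjusted p = 0.0444). Tbx21, the gene of T-bet, known as the master factor of type 1 helper T cells and natural killer cells, was at 4.81 and 4.78 in WT, 4.89 in the exercised and 3.53 in the sedentary SPORTS sample. The sedentary array was the only one apart: there Tbx21 fell by 1.26 on the log2 scale (SE 0.06, limma adjusted p = 0.0343), while its exercised difference of 0.09 did not pass (limma adjusted p = 0.312) and changed sign in 2 of 11 settings. Without the filter on dim genes, both sedentary calls were lost, at limma adjusted p of 0.104 for Tbx1 and 0.0789 for Tbx21.

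The probe for Tbx21 was bright, with processed signals of 30800 and 29700 in WT, 25600 in the exercised and 12900 in the sedentary SPORTS sample. Of 12 T cell and natural killer cell markers with a probe, a list drawn up after this value was seen, 9 were above background on no array (Cd3e, Cd3g, Cd8a, Cd2, Lck, Ifng, Il2rb, Gzmb and Prf1). Cd4 and Zap70 were above on some arrays. Cd3d was above on all, at -2.47, -2.46, -2.61 and -2.58 in the order WT 1, WT 2, exercised and sedentary, so it did not follow Tbx21. Whether the probe reads another transcript was not tested.

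Tbx3, which patterns the posterior limb and mammary line and represses differentiation, was at -2.10 and -2.04 in WT, -3.32 in the exercised and -2.56 in the sedentary SPORTS sample. Both SPORTS arrays lay below both WT arrays, and Tbx3 fell by 1.26 on the exercised one (SE 0.07, limma adjusted p = 0.0055). The exercised Tbx3 value lay near the lowest level well above background on that array, -3.43. With normexp background correction the exercised difference was -0.67, so its size is imprecise. Tbx18, a gene of mural cells and of somite and limb mesenchyme, was above background on WT array 2 alone, at -3.31. The other arrays measured -3.54 (WT 1), -5.44 (exercised) and -4.14 (sedentary), and like Hoxd10 it did not enter the test.

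The promoters of Tbx1 and Tbx21, the members called on the sedentary array, are printed from RefSeq, build GRCr8, for comparison with those of the HOX genes; capitals mark the T-box core AGGTGT in Tbx1 and the MEIS core TGACAG in Tbx21.
Tbx1 (chr11:95913360-95913659, plus strand): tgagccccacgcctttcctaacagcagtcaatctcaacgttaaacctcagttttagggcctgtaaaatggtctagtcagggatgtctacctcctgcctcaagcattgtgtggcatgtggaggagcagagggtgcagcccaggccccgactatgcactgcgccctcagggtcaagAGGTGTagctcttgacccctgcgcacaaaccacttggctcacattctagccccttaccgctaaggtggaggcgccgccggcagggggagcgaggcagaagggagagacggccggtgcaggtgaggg
Tbx21 (chr10:82595204-82595503, minus strand): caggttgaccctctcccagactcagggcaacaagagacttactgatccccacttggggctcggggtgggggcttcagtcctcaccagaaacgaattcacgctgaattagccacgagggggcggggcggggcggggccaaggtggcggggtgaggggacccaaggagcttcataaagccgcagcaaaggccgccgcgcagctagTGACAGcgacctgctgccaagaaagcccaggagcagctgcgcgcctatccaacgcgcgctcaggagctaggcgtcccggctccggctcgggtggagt
AGGTGT begins at base 175 of the Tbx1 window, the only member promoter of 36 that holds it, and TGACAG at base 204 of the Tbx21 window. Neither window holds CACGTG or CCAAT. Tbx1 has 12 CpG dinucleotides and Tbx21 has 22, against 29 in Hoxa7, 27 in Hoxd9 and 24 in Hoxd10.

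Emx2 had the largest difference of any member tested. This homeobox gene of the forebrain, urogenital tract and shoulder girdle was at 0.66 and 0.83 in WT, -2.63 in the exercised and 0.42 in the sedentary SPORTS sample. The sedentary array lay just below WT and the exercised array far below all others. Emx2 fell by 3.38 on the exercised array (SE 0.11, limma adjusted p = 0.00435) and stood 8.32-fold lower there than on the sedentary one. Msx1, which keeps limb mesenchyme and muscle precursors undifferentiated, was at -1.42 and -1.22 in WT, -2.48 in the exercised and -1.23 in the sedentary SPORTS sample. It fell by 1.16 on the exercised array (SE 0.12, limma adjusted p = 0.0123) and hardly differed from WT on the sedentary one, by 0.09. Irx5, the iroquois gene known for cardiac repolarisation and limb bud patterning, was at -0.81 and -0.91 in WT, 0.19 in the exercised and -1.24 in the sedentary SPORTS sample. It rose by 1.05 ± 0.08 on the exercised array (limma adjusted p = 0.00819), and the sedentary difference of -0.38 did not pass (limma adjusted p = 0.0925).

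Taking both SPORTS arrays against both WT arrays, none of the 21 members tested passed an adjusted p of 0.05 in limma, where 0% of 13326 genes did. At an unadjusted p under 0.05 there were 1 member and 982 genes. No member lay at least 2-fold to 1 side of both WT arrays on both SPORTS arrays, a rule met by 1.92% of genes. The SPORTS arrays lay on opposite sides of the WT mean for 14 of the 21 and for 46.7% of all genes. Both were below both WT arrays for 6 members, among them Emx2, Hoxa11, Pbx2, Pitx1 and Tbx3, a pattern shown by 22.3% of all genes, and both were above for 0 members, against 21.4% of all genes. Between the WT arrays themselves, 0 members were at least 2-fold apart, against 1.13% of genes, and the median absolute difference of the members was 0.09.

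Taking each SPORTS array alone against the WT pair, 2 of 21 members were called on the sedentary array, where 6.27% of all genes were called; both were lower, against 3.45% of all genes. The members' median difference was -0.32, against -0.01 over all genes. This count moved between 0 with no filter on dim genes, where 0% of all genes were called, and 8 with a variance trend, where 21.1% were. On the exercised array 17 of 21 members were called (81%), where 53.3% of all genes were. Of these, 6 were higher, against 27.3% of all genes, and 11 lower, against 26.0%. The members' median difference was -0.51, against 0.00 over all genes. The 2 comparisons share the WT arrays. With that background a call on the exercised array was common among all genes, and the test rests on 1 residual degree of freedom.

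**Figure D3:**
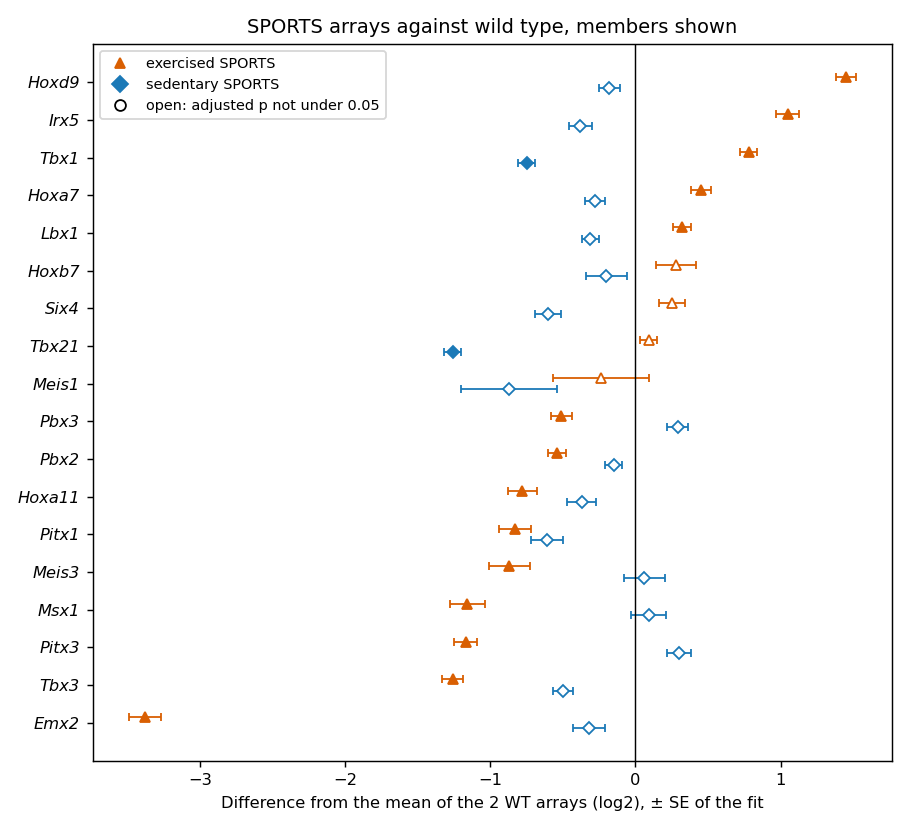
Difference of the exercised (triangles) and sedentary (diamonds) SPORTS array from the mean of the 2 WT arrays, in log2 units with the SE of the fit, for 18 of the members tested; filled symbols passed an adjusted p of 0.05. Exercised values run from -3.38 (Emx2) to 1.45 (Hoxd9), and sedentary values from -1.26 (Tbx21) to 0.30 (Pitx3).

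Between the SPORTS arrays, which have no replicate and so no test, 10 of 21 members were at least 2-fold apart (47.6%), against 21.9% of all genes. The 5 members higher in the exercised sample, against 9.11% of all genes, included Hoxd9 (by 1.62 on the log2 scale), Tbx1 (1.53), Irx5 (1.43) and Tbx21 (1.36). The 5 lower ones, against 12.8% of all genes, included Emx2 (-3.06), Pitx3 (-1.47) and Msx1 (-1.25). Msx1 dropped under 2-fold with normexp correction. The members' median was -0.22 with 21 members and 0.48 over the 19 above background on all arrays, against 0.03 over all genes, so the median's sign depends on the filter. Median scaling moved the median of all genes from 0.03 to 0.23 and their split from 1214 higher and 1706 lower to 1663 and 1354; that of the members became 6 higher and 4 lower.

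**Figure D4:**
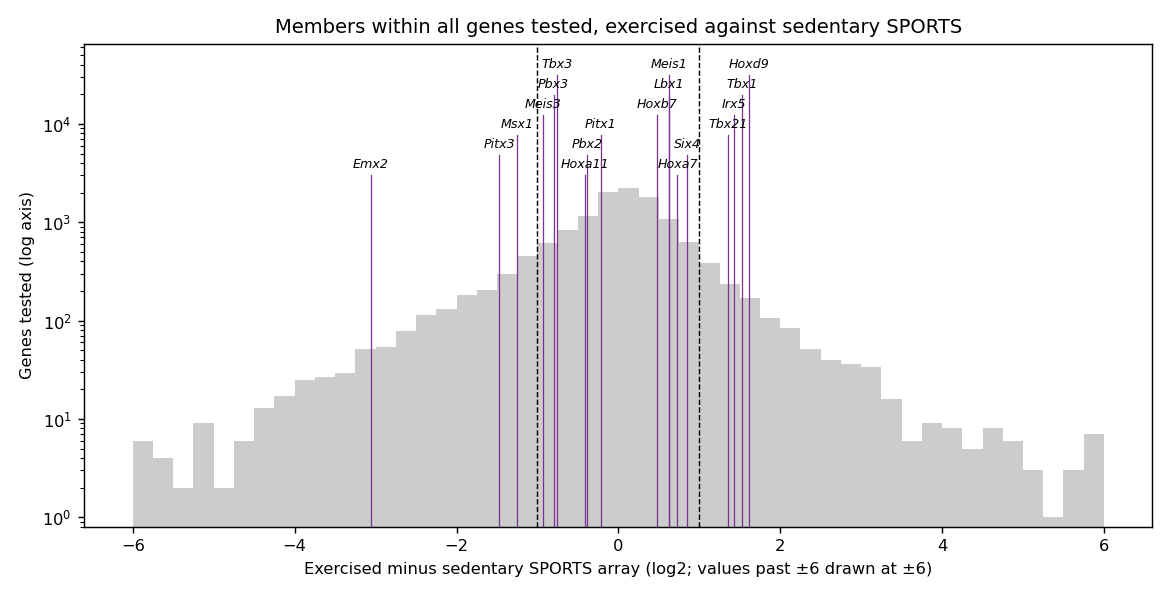
Histogram of the exercised minus sedentary SPORTS difference (log2, horizontal axis) over 13326 genes tested, on a log count axis, with a line for each of 18 members; dashed lines mark 2-fold. Emx2 (-3.06) lies farthest out, and Hoxd9 (1.62) is the highest of those drawn.

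Fibre type and connective tissue markers also differed between the arrays. Over all genes, 27.3% were called higher and 26.0% lower on the exercised array, and 6.27% were called on the sedentary one. Of 12 fast fibre genes tested, 10 rose and 1 fell on the exercised SPORTS array and 6 fell on the sedentary one; their summed scaled log2 level was 10.46 and 10.50 in WT, 11.83 in the exercised and 8.91 in the sedentary sample. The exercised array was the highest and the sedentary array the lowest of the 4 for Six4, Tbx1, Tbx21, Lbx1, Hoxa7, Hoxb7, Hoxd9 and Irx5. The share of all genes with this joint pattern was not counted. Of 21 members tested, the exercised array lay above both WT arrays for 9, against 46.5% of all genes. The sedentary array lay below both for 16, against 45.1% of all genes. Of 12 slow fibre genes, 11 fell on the exercised array and 2 rose on the sedentary one, with summed levels of 11.19, 11.15, 9.23 and 11.07 in the order WT 1, WT 2, exercised and sedentary. All 9 fibroblast markers tested fell on the exercised array (summed levels 8.19, 8.13, 6.35 and 7.80), and so did all 7 tendon markers (6.59, 6.48, 3.61 and 5.59) and 6 of 7 macrophage markers (5.68, 5.14, 4.09 and 6.32). The exercised array was thus the lowest for the sums of these mesenchymal and immune cell markers, and also for the slow fibre sum. It lay below both WT arrays for 11 of 21 members tested, against 45.7% of all genes. Among these members were Emx2, Msx1, Pitx3, Tbx3, Hoxa11, Pitx1, Pbx2, Pbx3 and Meis3. On the sedentary array 4 tendon and 2 fibroblast markers fell and 0 macrophage markers were called. Among the other cell types, 3 of 5 endothelial, 3 of 6 Schwann cell and 2 of 4 adipocyte markers tested fell on the exercised array, and 3 of 8 smooth muscle and pericyte markers rose. Of 4 satellite cell markers tested, 2 rose and 1 fell there (2.88, 2.84, 3.21 and 2.29). Some fibre genes moved further than the fibre sums. In the order WT 1, WT 2, exercised and sedentary, Myh4 was at 1.03, 1.41, 8.63 and -2.56. Pvalb was at 0.33, 1, 8.19 and 0.99, and the slow fibre gene Tnni1 at 8.45, 8.38, 4.98 and 8.38. Myh2, the fast fibre gene that fell on the exercised array, was at 6.24, 6.34, 5.86 and 2.65. In whole muscle, fewer cells of a type and less RNA per cell cannot be told apart. A difference between samples in the muscle or region taken was not tested. The part of these markers in the members' differences was not tested.

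**Figure D5:**
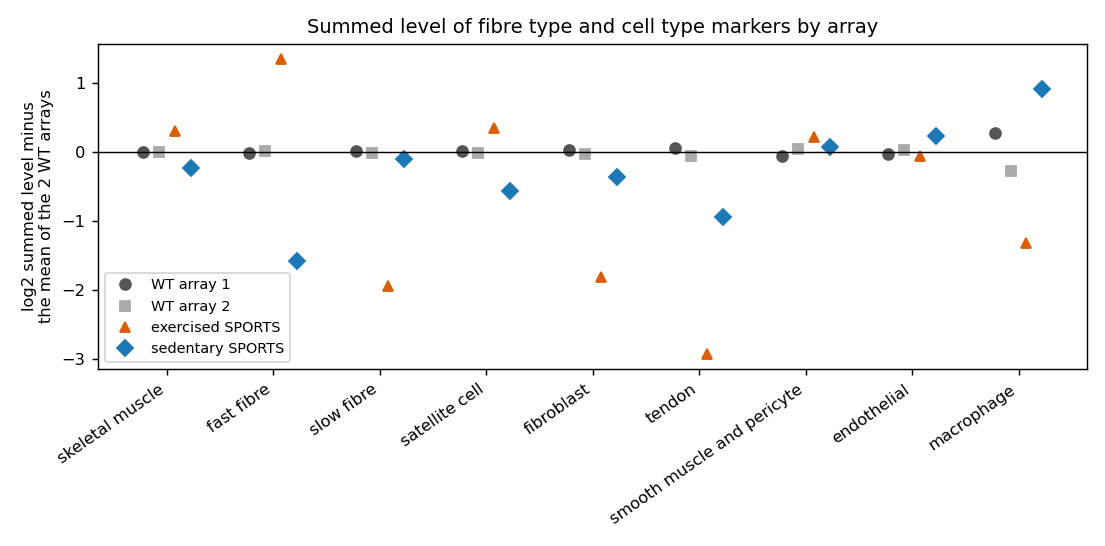
Log2 summed level of each marker list on each array minus the mean of the 2 WT arrays (vertical axis, log2 units), 1 symbol per array. The fast fibre sum is highest on the exercised array (11.83 before subtraction) and lowest on the sedentary one (8.91), and the tendon sum is lowest on the exercised array (3.61).

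Genes that work with the members changed in part. The counts in this list and the next ones stand beside 53.3% of all genes called on the exercised array. On the sedentary array that share was 6.27%. Of 10 partners of Six4-class, PBX and MEIS proteins, 4 were tested, and on the exercised SPORTS array 3 rose and 1 fell (median 0.92, against 0.00 over all genes), with none called on the sedentary array. Pknox1, a MEIS-related homeodomain partner of PBX, was at -3.59 and -3.44 in WT, -0.24 in the exercised and -3.13 in the sedentary sample. On the exercised array it rose by 3.27. Pknox1 was above background on 3 arrays only. Its WT values lay near the lowest levels well above background, -3.65 on WT array 1 and -3.60 on WT array 2, so the size of the rise is imprecise. Eya2, a coactivator of Six4, rose by 0.90 (limma adjusted p = 0.0302), Tgif1, a repressor of the same homeodomain superclass, rose by 0.94 (limma adjusted p = 0.00666), and Tgif2 fell by 0.35 (limma adjusted p = 0.0491).

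Of 46 limb outgrowth and patterning genes, 35 had a probe and 11 were tested. Shh, Fgf8, Fgf10, Hand2, Gli3 and Shox2, all signals or factors of the limb bud, were above background on no array. Over all genes, 27.3% were called higher and 26.0% lower on the exercised array. On the exercised array 2 rose and 7 fell, and on the sedentary array 0 rose and 2 fell; the medians were -0.80 and -0.36, against 0.00 and -0.01 over all genes. Meox1, a somite homeobox gene, fell on both SPORTS arrays, where it was not above background: it was at least 2.09-fold lower on the exercised and at least 2.47-fold lower on the sedentary array than in WT (limma adjusted p = 0.00424 and 0.0361). Prrx1, a limb mesenchyme homeobox gene named here after its value was seen, was the other one to fall on the sedentary array, by -0.74 (limma adjusted p = 0.045). On the exercised array Twist2, a mesenchymal repressor, and Tshz3, a zinc finger homeobox gene, passed the test (limma adjusted p = 0.0231 and 0.00655) but were not above background there, with bounds of at least 1.02-fold and at least 1.09-fold. Bmp2, a growth factor, rose by 0.86 (limma adjusted p = 0.00983).

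Retinoic acid sets HOX expression in the embryo, and of 13 pathway genes tested 3 rose and 5 fell on the exercised array, with 1 higher and 1 lower on the sedentary one (medians -0.33 and 0.01). On the sedentary array these were, named after their values were seen, Dhrs3, a retinal reductase, which rose by 0.79 (limma adjusted p = 0.0479), and Crabp1, a retinoic acid carrier, which was not above background there and stood at least 5.27-fold lower than in WT (limma adjusted p = 0.0319). On the exercised array Aldh1a2, which makes retinoic acid, was not above background and at least 2.9-fold lower than in WT (limma adjusted p = 0.0103), the retinol carrier Rbp4 fell by 2.11 (limma adjusted p = 0.00802), and the receptor gene Rxrg rose by 1.12 (limma adjusted p = 0.00708), while Crabp2, a cytoplasmic retinoic acid carrier, differed from WT by -0.56 and did not pass (limma adjusted p = 0.265). Dhrs3 and Crabp1 differed from WT in the same direction on the exercised array as on the sedentary one. There Dhrs3 was higher by 0.58, and Crabp1 was not above background and at least 4.11-fold lower. Polycomb and Trithorax proteins keep HOX genes silent or active. The counts of this list and of the retinoic acid list stand beside 53.3% of all genes called on the exercised array. Of 15 tested, 3 rose and 3 fell on the exercised array and 0 were called on the sedentary one (medians -0.05 in both). Among the Polycomb subunits on the exercised array, Cbx8 fell by 1.14 and Cbx6 fell by 1.36, and Phc1 rose by 1.23 (limma adjusted p = 0.00796, 0.00925 and 0.0052). Cbx2 passed as well (limma adjusted p = 0.0146), with a bound of at least 1.22-fold because it was not above background there.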

How the data were processed

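The deposited scanner files hold 1 intensity per spot (the processed signal), from Agilent Feature Extraction 10.7.1.1, per the file headers and the submitters' processing notes. The deposited value table holds log2 values centred on each probe's median, per the file values; it was used as an alternative. From the intensities, log2 minus each array's 75th percentile was taken, spots with outlier flags left out (352 of 30367 probes), and the probe with the highest mean kept per gene. Genes well above background on at least 2 arrays (13326) were tested with limma 3.58.1 (R 4.3.3): 2 arrays against 2, and 3 groups with 1 residual degree of freedom, from the WT pair. P-values were adjusted by Benjamini-Hochberg over all of them. The script was tested on simulated data. Differences of at least 2-fold without a test describe the SPORTS arrays. Bounds, "at least N-fold", set the brighter group's mean against, per array, the higher of the dim probe's own value and the lowest signal well above background. Summed levels are log2 of summed scaled signals over a list's probes.

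Members given with every array's value were those called, at least 2-fold apart between the SPORTS arrays, or textbook limb-type markers; Hoxb7, Meis1, Six4 and Tbx18 were added after their values were seen. Up to 4 genes per list were named by the size of their difference between the SPORTS arrays. Myh2 was instead named as the fast fibre gene that fell on the exercised array. Not every fibre gene with a large difference was given, and Actn3 (7.65) and Myh1 (6.49) were among those left out. Members and lists were chosen with earlier results of these data known. Promoters are from RefSeq GRCr8, matched by symbol (36 of 54 members). Alternatives varied scaling, background correction, dim-gene filter, floor, probe choice, variance model, value source and arrays. The array number limits precision. Some members are not reported here by name; the counts include them, and the plots leave them out.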

Additional observations from a re-analysis of the deposited data

How the results depend on the processing

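With both SPORTS arrays against both WT arrays, members called ranged from 0 to 17 on leaving out 1 array: 0 without either WT array, 2 without the exercised array (Tbx1 and Tbx21; 6.27% of genes) and 17 without the sedentary array (53.3% of genes); it was 0 under the other alternatives. On the sedentary array, the 2 members called (6.27% of all genes) became 7 with normexp correction (18.7% of genes), 7 of 19 among genes above background on all 4 arrays (18.4%), 4 with a floor on dim values (12.1%), 8 with a variance trend (21.1%) and 0 of 52 with no filter (0%), so the share of all genes called moved along with the members; the cause was not tested. Without WT replicate 1, 2 members were at least 2-fold from WT there, and 1 without WT replicate 2, as in the full data. On the exercised array 15 to 19 members were called under the alternatives that filtered dim genes (52.3% to 60.6% of genes) and 13 of 52 without a filter (19.5%), and 7 members were at least 2-fold from WT without either WT array. Its split of called genes went from 3634 higher and 3463 lower to 5571 and 2505 with median scaling, and to 2733 and 4517 with the percentile of detected probes; members went from 6 higher and 11 lower to 8 and 11, and to 5 and 11. Between the SPORTS arrays, 8 to 11 members were at least 2-fold apart under the filtered alternatives (16% to 22.6% of genes) and 15 of 52 without a filter (18.4%), among them Hoxb4, Msx3 and Tbx20, which were above background on no array. No result reversed its direction among called values. Leaving out 1 SPORTS array leaves the other against the WT pair. The counts without a SPORTS array therefore repeat the comparisons of each SPORTS array alone with WT and are not a separate check. No paired analysis was possible because the groups share fewer than 2 replicate numbers. Signals near background limit 29 of the 52 members measured.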

Other observations

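Hoxb3 and Hoxb13 were left out because 1 spot each was non-uniform. Hoxb3 read 246 on WT array 2 and between 16.6 and 19.4 on the other 3 arrays, and Hoxb13 read 158 on the exercised SPORTS array and between 16.8 and 19.1 on the others, in processed signal. Each high value is the one with the outlier mark.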
